A study of Mus musculus with 2 samples.

Results

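The genes described here are 35 genes of protein folding and quality control in the endoplasmic reticulum (ER), followed in mouse pancreatic islets that did or did not overexpress the microRNAs miR-141 and miR-200c. They are known genes of protein folding in the ER and of its stress response, were listed by name with earlier results of these data known, and make up 35 of 18193 genes read by a probe set assigned to that gene alone. Gene expression was measured in total RNA on Affymetrix mouse arrays. The first sample was islets of transgenic mice with miR-141/200c overexpression, titled Ripmir_islets, and the second was islets of control mice labelled Bl6_control, with C57Bl6 in the sample title. Both came from male mice 6 weeks old, and the islets received no treatment between isolation and RNA extraction. The labels do not expand Ripmir or name the promoter that drives the transgene. The genotype label and title of the transgenic sample name no strain, so a difference in strain background cannot be told apart from the transgene. The number of founder lines and the number of mice per sample are not stated in the labels. There was 1 array per genotype (n = 1). The values below therefore carry no replicate error and no p-value, and "higher" and "lower" describe these 2 arrays only.

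Secreted proteins such as proinsulin enter the ER through the Sec61 channel, are folded there by chaperones and disulfide isomerases, and are returned to the cytosol for destruction when they fail to fold. The last step is ER-associated degradation (ERAD). When unfolded protein accumulates, the membrane sensors IRE1 (gene Ern1), PERK (gene Eif2ak3) and ATF6 signal to the nucleus. IRE1 splices the messenger RNA of the transcription factor XBP1, ATF6 is cut to release a transcription factor, and both raise the genes of chaperones and of ERAD. PERK slows translation. Beta cells, which make large amounts of insulin, depend on this system, and mutations of PERK or of the ER membrane protein wolframin cause diabetes in humans.

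The overexpressed microRNAs are shown here because they define the transgenic sample. Each is given 5′ to 3′ with its seed, bases 2 to 8, in capitals, as RefSeq lists it for GRCm38.p6. Both lie on the minus strand of chr6, miR-141-3p at chr6:124717917-124717938 and miR-200c-3p at chr6:124718324-124718346.
mmu-miR-141-3p: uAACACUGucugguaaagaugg
mmu-miR-200c-3p: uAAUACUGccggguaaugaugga
The seeds are not identical, although both microRNAs belong to the miR-200 family. No microRNA level was measured here.

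Values are log2 RMA expression values, and each difference is transgenic minus control. Where a gene had several probe sets, the one brightest on average was used. A gene was at the floor when its mean over both arrays reached 5.76, the median of all probe set values. All 35 members passed this floor, so the floor removed none of them. Over the 11835 genes at the floor the median difference was 0.026, and the central 95% of differences ran from -0.62 to 0.96. These figures describe the spread across genes, which are not replicates. Pairs of probe sets for one gene lay a median of 0.20 apart in their difference. They were read on the same arrays, so this gap holds no variation between arrays or mice and is not an error of a difference.

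Most of the ER folding and degradation genes were lower in the transgenic sample, by small amounts. Of the 35 members 24 were lower and 11 higher, or 68.6% lower against 46.0% of all genes at the floor, and the median difference was -0.13. The members furthest lower were Derl3, Creld2, Sel1l, Sdf2l1 and Herpud1, and those furthest higher were Edem2 and Uggt1. The 2-fold rule asks for a log2 difference of at least 1. By this rule 2 members were lower, 5.71% against 0.490% of all genes, and none was higher against 2.26% of all genes. With a 1.5-fold rule 4 members were lower, 11.4% against 3.00% of all genes, and again none was higher, against 7.17% of all genes. Read over all probe sets, 56 of the 75 member probe sets at the floor were lower, 74.7% against 48.2% of all single-symbol probe sets.

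**Figure D1:**
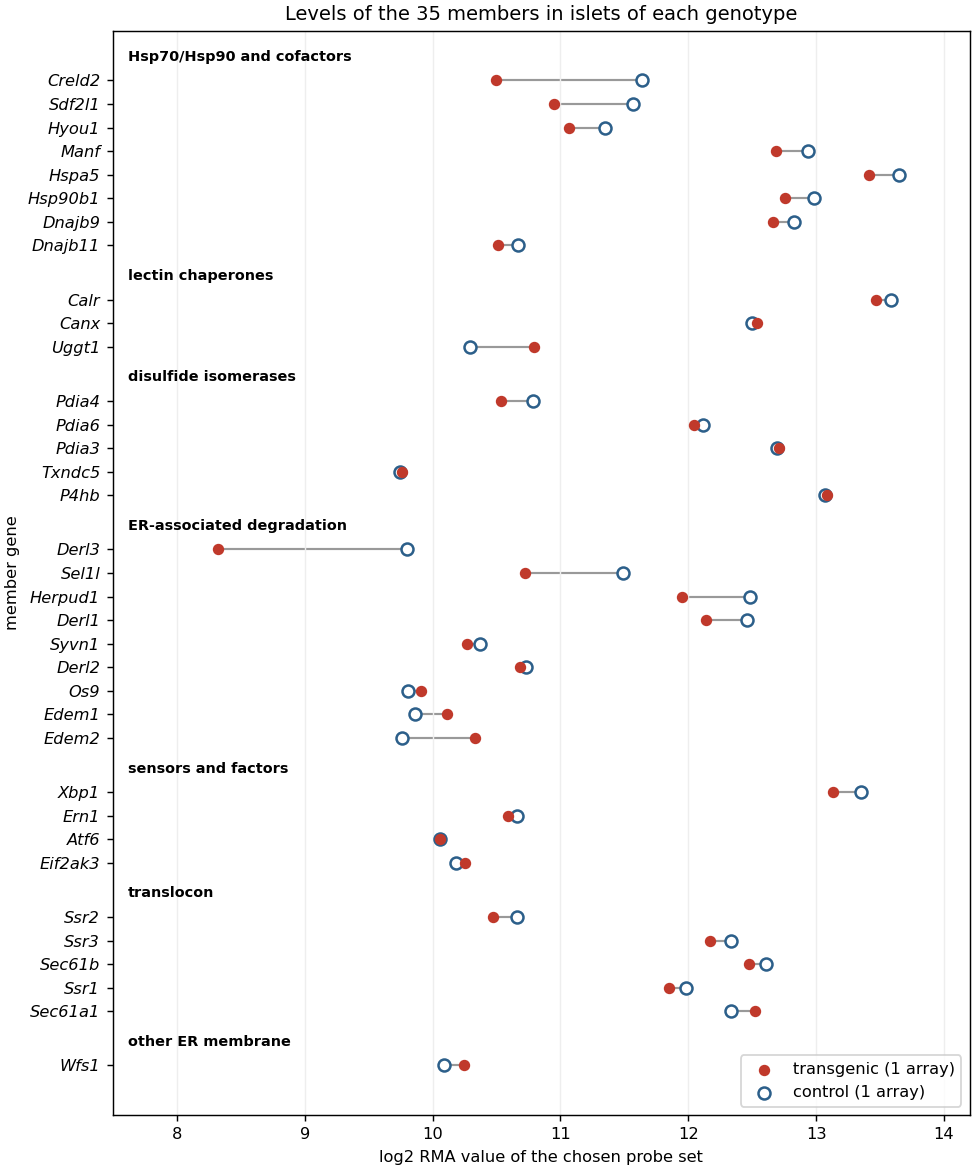
Log2 RMA value of each of the 35 member genes, grouped by role, in transgenic islets (filled red points, 1 array) and control islets (open blue points, 1 array), with a grey line between them. All 8 genes of the Hsp70 and Hsp90 group sit lower in the transgenic sample, while Uggt1, Edem1 and Edem2 sit higher.

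The members were divided into arms from general knowledge of their regulation, with earlier results of these data known. The assignment is not exact. Canx, for example, lies outside the first arm but holds a promoter element of ATF6 and XBP1 given below. The other arms are therefore not sets of genes known to be free of control by ATF6 or XBP1. Any contrast between the arms depends on this assignment. Genes listed as raised by ATF6 or XBP1 formed the first arm, and 17 of its 20 members were lower in transgenic islets (median difference -0.23). The second arm, the 3 membrane sensors with Xbp1, had a median of -0.040 with 3 of 4 lower. Xbp1 was placed there as the factor that IRE1 acts on, although ATF6 also raises it. The 5 translocon members had a median of -0.13 with 4 lower. Sensors and translocon together had a median of -0.13, and the median of the target arm minus theirs was -0.099. The remaining 6 members, Canx, Uggt1, Txndc5, Edem2, Os9 and Wfs1, were all higher, with a median of 0.13 and a range from 0.014 to 0.57. With probe sets averaged per gene, Hsp90b1, Pdia3 and Edem1 of the target arm and Txndc5 and Os9 of the remaining members changed sign, as did Atf6 and Sec61a1. The difference between the target arm and the sensor and translocon arms was -0.062 without Derl3 and Creld2 and -0.13 without Xbp1, and with 1 array per genotype it was not tested.

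**Figure D2:**
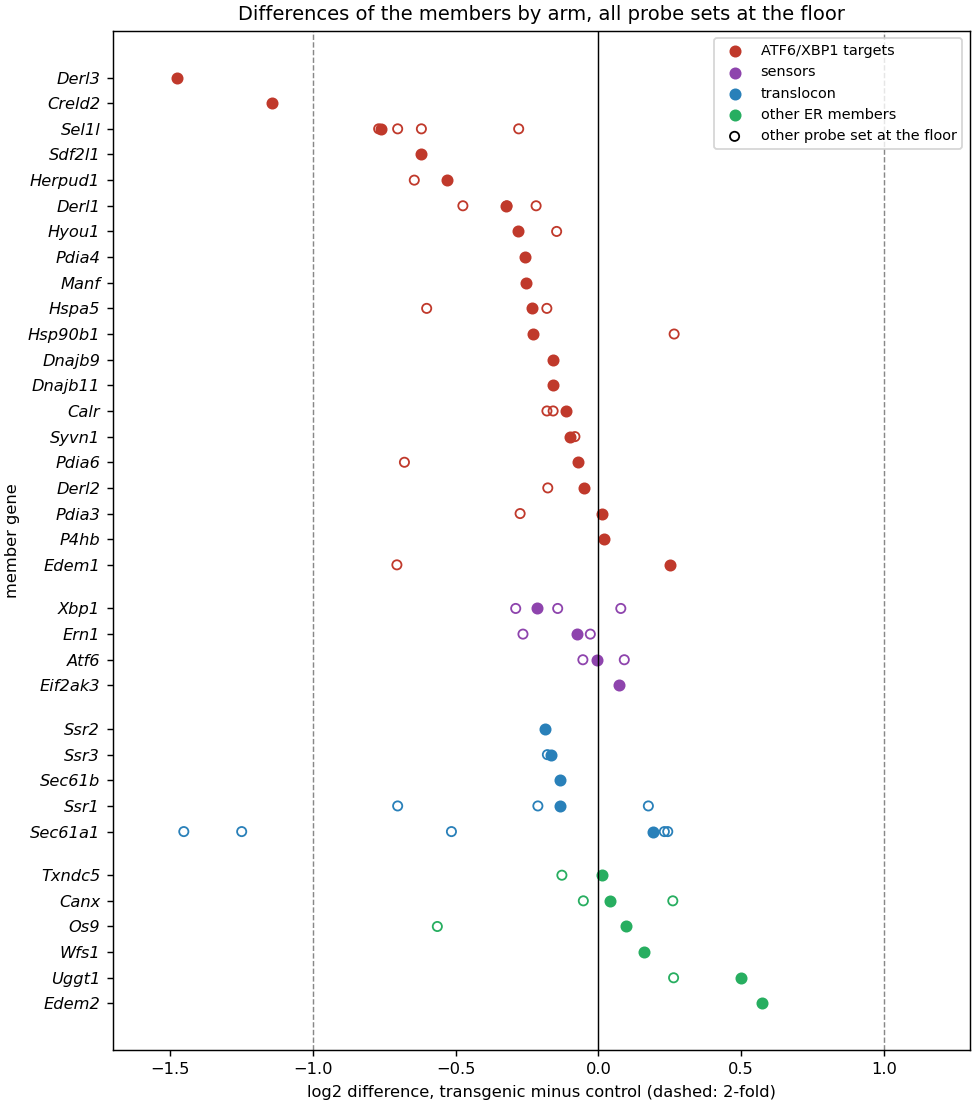
Log2 difference, transgenic minus control, of each member by arm. Filled points are the chosen probe set of a gene, open points its other probe sets at the floor, and dashed lines mark 2-fold. Derl3 and Creld2 are the members beyond the lower dashed line by their chosen probe set, and the probe sets of Sec61a1 spread from -1.45 to 0.24.

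ATF6 and XBP1 act through short promoter elements, and those are printed here because they link the members of the target arm. The ER stress response element (ERSE) has the letters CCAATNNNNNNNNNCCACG and is bound by NF-Y at its first part and by ATF6 or XBP1 at its last. ERSE-II has the letters ATTGGNCCACG. Both were searched on both strands of RefSeq promoter windows of GRCm38.p6, from 250 bases before to 50 bases after each annotated start. Of the members 29 had a window, and windows of Hyou1, Manf, Derl1, Atf6, Sec61a1 and Ssr2 were not used here. ERSE was found in 8 of the 29 members, or 27.6%, against 0.137% of 27025 genes and 0.119% of 32851 windows. ERSE-II was found in 2 of the 29, or 6.90%, against 0.0444% of genes and 0.0365% of windows. Genes were put in the target arm from general knowledge, some of which was gained through these elements, so the elements are not independent of the arm. Each line gives the element in its own 5′ to 3′ direction, with the fixed letters in capitals and the free letters in lower case. The lines with 19 bases are ERSE, those with 11 are ERSE-II.
Derl3, chr10:75893242-75893260 (- strand): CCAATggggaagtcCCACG
Creld2, chr15:88819520-88819538 (- strand): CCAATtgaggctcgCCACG
Herpud1, chr8:94386377-94386387 (+ strand): ATTGGgCCACG
Hspa5, chr2:34772025-34772043 (+ strand): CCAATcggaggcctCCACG
Hsp90b1, chr10:86705638-86705656 (- strand): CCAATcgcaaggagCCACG
Hsp90b1, chr10:86705533-86705551 (+ strand): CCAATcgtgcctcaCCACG
Dnajb11, chr16:22857852-22857862 (+ strand): ATTGGcCCACG
Calr, chr8:84847075-84847093 (+ strand): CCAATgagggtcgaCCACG
Syvn1, chr19:6046532-6046550 (+ strand): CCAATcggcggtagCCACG
Pdia6, chr12:17266491-17266509 (+ strand): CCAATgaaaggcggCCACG
Canx, chr11:50325800-50325818 (- strand): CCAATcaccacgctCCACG
Hsp90b1 held the element on both strands of its window, hence 2 lines. The Dnajb11 element lay after the annotated start and the others before it, from 44 bases before the start in Syvn1 to 212 in Hsp90b1, counted to the base of the element furthest from the start.

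The windows of the members past the 2-fold rule, Derl3 and Creld2, and of Herpud1, the member with ERSE-II that was furthest lower, are given whole. They run 5′ to 3′ on the strand of the gene, and capitals mark the element as it stands on that strand.
Derl3, chr10:75893148-75893447 (+ strand): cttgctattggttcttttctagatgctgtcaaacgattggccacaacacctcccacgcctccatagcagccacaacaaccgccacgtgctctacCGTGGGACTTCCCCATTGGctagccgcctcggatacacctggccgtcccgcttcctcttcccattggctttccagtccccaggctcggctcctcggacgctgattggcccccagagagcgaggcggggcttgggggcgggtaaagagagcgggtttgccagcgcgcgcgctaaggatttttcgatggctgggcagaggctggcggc
Creld2, chr15:88819396-88819695 (+ strand): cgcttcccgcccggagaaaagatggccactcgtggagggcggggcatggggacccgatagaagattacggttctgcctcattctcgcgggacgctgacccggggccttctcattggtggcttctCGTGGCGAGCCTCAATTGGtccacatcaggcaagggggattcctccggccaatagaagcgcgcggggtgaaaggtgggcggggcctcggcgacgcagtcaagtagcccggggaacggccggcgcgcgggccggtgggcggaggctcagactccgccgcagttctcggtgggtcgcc
Herpud1, chr8:94386179-94386478 (+ strand): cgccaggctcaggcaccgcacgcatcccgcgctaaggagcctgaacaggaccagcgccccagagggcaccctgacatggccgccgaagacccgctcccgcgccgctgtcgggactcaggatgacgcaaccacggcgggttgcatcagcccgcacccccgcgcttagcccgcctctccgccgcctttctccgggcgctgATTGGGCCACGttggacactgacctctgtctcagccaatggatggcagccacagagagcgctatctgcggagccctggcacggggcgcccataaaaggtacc
In Derl3 and Creld2 the element stands on the strand opposite to the gene, 156 and 126 bases before the start, and in Herpud1 on the strand of the gene, 52 bases before it. The last part of the element alone, CCACG, which is contained in both elements, occurred in 23 of the 29 members (79.3%) and in 35.5% of genes. CCAAT alone, which every ERSE holds and every ERSE-II holds on its other strand, occurred in 22 of the 29 (75.9%) and in 41.1% of genes. Another motif, the core TGACGTG that XBP1 and ATF6 bind in other promoters, was found in Hspa5 and Txndc5, 6.90% of members against 2.22% of genes. A match is only a description of these letters in this window.

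Of the 10 members with ERSE or ERSE-II 9 were lower in transgenic islets (median -0.19), with a range from -1.47 to 0.041. Of the 19 members whose windows held neither 10 were lower, with a median of -0.050 and a range from -0.76 to 0.57. Canx, the exception among those with the element, is not in the target arm. Sdf2l1 and Sel1l, both in the target arm and both well lower, had CCACG in their windows but neither full element. Within the target arm the median was -0.23 over 9 genes with an element, all of them lower by their chosen probe sets. Of these, Hsp90b1 turned to 0.018 with averaged probe sets. Over the 8 target genes with neither element the median was -0.11, and 5 were lower. The 6 members whose windows were not used had a median of -0.22, with 5 lower. The 3 of them in the target arm were all lower, with a median of -0.28. Both of these medians lie below those of the members with an element.

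**Figure D3:**
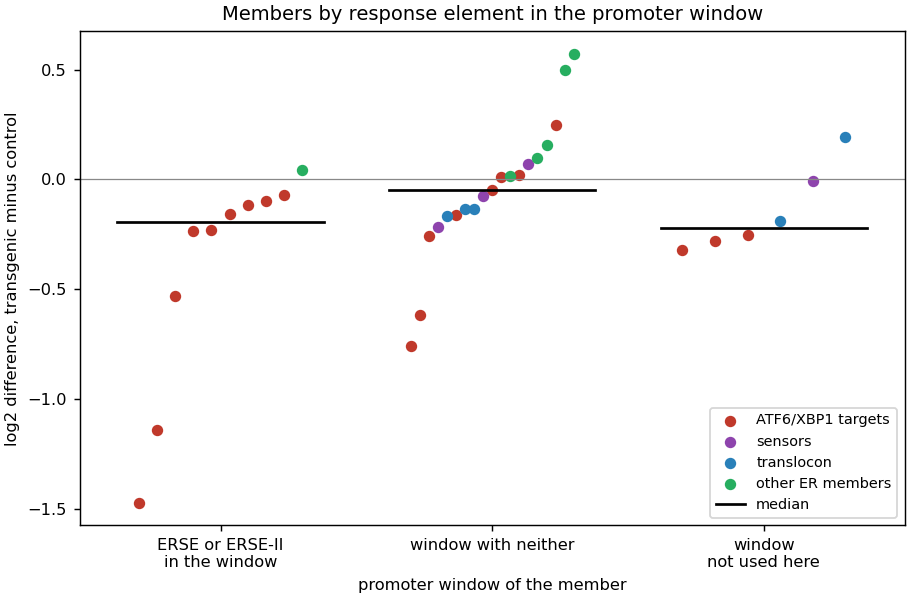
Log2 difference, transgenic minus control, of the 35 members by the content of the promoter window, with a black line at the median of each class. The 10 members with ERSE or ERSE-II (left) have a median of -0.19 and the 19 with neither (middle) one of -0.050, and both classes reach below -0.5. The 6 members whose windows were not used (right) have a median of -0.22.

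The members grouped as luminal Hsp70 and Hsp90 chaperones and cofactors were lower in transgenic islets in 8 of 8 cases, by a median of -0.24. This group is broad, and Creld2 and Manf were placed in it although they are not Hsp70 or Hsp90 proteins. Creld2, a small ER protein with reported isomerase activity, was the furthest, at 10.49 in transgenic islets and 11.64 in control islets, 2.21-fold lower. It ranked 30 among 11835 genes counted from the lowest difference. Sdf2l1, a partner of the J-domain cofactors of BiP, followed at 10.95 in transgenic against 11.57 in control islets, a difference of -0.62. Both genes are raised by ER stress, and each was read by a single probe set.

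The major chaperones of the ER differed less. Hspa5, which encodes BiP, the Hsp70 of the ER and the inhibitor of the sensors, read 13.41 in transgenic islets and 13.65 in control islets (-0.23). Its 2 other probe sets gave -0.60 and -0.18. Hsp90b1, the Hsp90 of the ER known as Grp94, read 12.75 in transgenic and 12.98 in control islets (-0.23), but its other probe set gave 0.27, so the direction of this gene depends on the probe set. Hyou1, the exchange factor and Hsp70 relative also called Grp170, had values of 11.07 in transgenic and 11.35 in control islets (-0.28), with a second probe set at the floor at -0.15. For Manf, a secreted ER protein that beta cells of the mouse need for survival, the values were 12.69 in transgenic and 12.94 in control islets (-0.25). The J-domain cofactors of BiP among the members were each 0.16 lower. Dnajb9 (ERdj4) stood at 12.67 in transgenic against 12.83 in control islets and Dnajb11 (ERdj3) at 10.51 in transgenic against 10.67 in control islets. None of these 6 genes reached a 1.5-fold difference by its chosen probe set.

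The lectin chaperones, which hold newly made glycoproteins by their sugar, had differences of both signs. Calr (calreticulin), the soluble one, was lower by all 3 probe sets and read 13.47 in transgenic islets and 13.58 in control islets (-0.11). Canx (calnexin), the membrane-bound one, read 12.54 in transgenic and 12.50 in control islets (0.041), with other probe sets at 0.26 and -0.053. Uggt1, the glucosyltransferase that sends unfinished glycoproteins back to them, was higher at 10.79 in transgenic against 10.30 in control islets (0.50), and its other probe set at the floor gave 0.26.

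Of the 5 disulfide isomerases 2 were lower and 3 higher, with a median of 0.011. Pdia4 (ERp72) stood furthest, at 10.53 in transgenic islets and 10.79 in control islets (-0.26). Pdia6, an isomerase that also acts on IRE1, read 12.05 in transgenic and 12.12 in control islets (-0.070), although a second, dimmer probe set gave -0.68. Pdia3 (ERp57), the partner of the lectin chaperones, read 12.71 in transgenic and 12.70 in control islets, P4hb (the classical isomerase PDI) 13.09 in transgenic and 13.07 in control islets, and Txndc5 (ERp46) 9.76 in transgenic and 9.75 in control islets. Second probe sets gave -0.27 for Pdia3 and -0.13 for Txndc5. The differences of these last 3 genes by their chosen probe sets lay between 0.011 and 0.019, and other scalings of the arrays left them close to 0. The sign of P4hb turned under all 3 scalings, that of Pdia3 under lowess and centring, and that of Txndc5 under centring, which shifts every gene by one constant. Hspa5, Calr, P4hb and Xbp1 had values above 13, near the top of the scale, where differences can be compressed.

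Among the ERAD genes 6 of 9 were lower in the transgenic sample, and the differences ran from -1.47 to 0.57. Derl3, a derlin of the channel that moves proteins out of the ER, read 8.32 in transgenic islets and 9.80 in control islets, 2.78-fold lower. It ranked 11 among 11835 genes counted from the lowest difference. Its single probe set belongs to the class _a, whose probes match several transcripts of one gene. The related Derl1 was lower by all 4 of its probe sets, at 12.14 in transgenic against 12.46 in control islets (-0.32), and Derl2 stood close to 0 at 10.68 in transgenic against 10.73 in control islets (-0.050), with a second probe set at -0.18. All 3 derlins were on the lower side, by amounts from -1.47 to -0.050.

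HRD1 is the main ligase of ERAD. Sel1l, the adaptor that stabilises the ligase, read 10.73 in transgenic islets and 11.49 in control islets (-0.76, 1.69-fold lower), with 4 other probe sets between -0.77 and -0.28. Syvn1, which encodes HRD1 itself, read 10.27 in transgenic and 10.37 in control islets (-0.10), with a second probe set at -0.082. Herpud1, a membrane protein that assembles the complex and is among the early genes of the ER stress response, was 1.44-fold lower at 11.95 in transgenic against 12.48 in control islets (-0.53), with its second probe set at -0.64. Sel1l and Herpud1 were lower by each of their probe sets at the floor.

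Edem2, Edem1 and Os9 act on misfolded glycoproteins, and none reached a 1.5-fold difference by its chosen probe set. Edem2, a mannosidase that starts the trimming of misfolded glycoproteins, was 1.49-fold higher, at 10.33 in transgenic islets and 9.76 in control islets (0.57). Averaged with its second probe set, which was below the floor, the gene stood at 0.12. Edem1, a relative that XBP1 raises, read 10.11 in transgenic and 9.86 in control islets (0.25), but its second probe set read -0.71, a larger difference of opposite sign. Os9, a lectin that hands substrates to Sel1l, read 9.91 in transgenic and 9.81 in control islets (0.095), and its second probe set gave -0.56. With probe sets averaged per gene, Edem1 and Os9 were on the lower side.

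Transcripts of the 3 membrane sensors had differences from -0.075 to 0.071 by their brightest probe sets. Ern1 read 10.59 in transgenic islets and 10.66 in control islets (-0.075), Atf6 10.05 in transgenic and 10.06 in control islets (-0.0060), and Eif2ak3 10.25 in transgenic and 10.18 in control islets (0.071). Other probe sets at the floor gave -0.26 and -0.028 for Ern1 and 0.091 and -0.054 for Atf6, while Eif2ak3 had none. Xbp1, which is itself raised by ATF6, was lower at 13.13 in transgenic against 13.35 in control islets (-0.22), and its other probe sets gave -0.29, -0.14 and 0.079. The probe sets carry no annotation of the spliced and unspliced forms of Xbp1, and sensor activity, which rests on protein modification and on splicing, was not measured. Wfs1, which encodes wolframin, read 10.25 in transgenic and 10.09 in control islets (0.16).

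In the translocon, the accessory subunits were lower by 0.13 to 0.19. Ssr2 read 10.47 in transgenic islets and 10.66 in control islets, Ssr3 12.17 in transgenic and 12.34 in control islets, and Ssr1 11.85 in transgenic and 11.98 in control islets. The other probe sets of Ssr1 ran from -0.70 to 0.18, and that of Ssr3 gave -0.18. These encode subunits of the translocon-associated protein complex, which helps preproinsulin and other weak signal sequences to enter. Sec61b, the small subunit of the channel, read 12.47 in transgenic and 12.61 in control islets (-0.13). Sec61a1, the pore subunit, was on the higher side at 12.52 in transgenic against 12.33 in control islets (0.19).

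The 6 probe sets of Sec61a1 fell into separate groups. The 3 brightest gave differences of 0.19, 0.23 and 0.24. The other 3, at lower values, gave -0.51, -1.25 and -1.45, the last from 6.29 in transgenic islets and 7.74 in control islets. Averaged over probe sets the gene stood at -0.42. What the probe sets read differently was not tested, and no probe sequence was used here. The members had 83 probe sets in all, 8 of them below the floor. Of the 40 that were at the floor and not chosen, 28 had the sign of the chosen one.

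**Figure D4:**
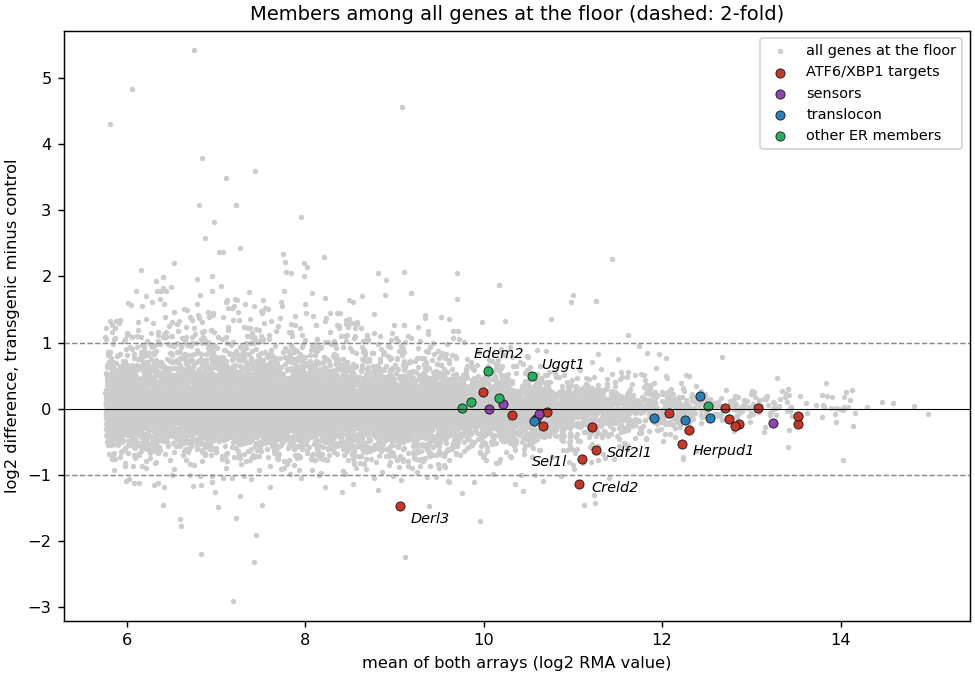
Log2 difference, transgenic minus control, against the mean of both arrays for 11835 genes at the floor (grey) and for the 35 members by arm (coloured). Derl3 at -1.47 and Creld2 at -1.14 lie below the lower 2-fold line, and the other members lie between -0.76 and 0.57.

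Other genes of the same organelle were described from 4 further lists, which held 80 genes, 76 of them at the floor. Together 42 were lower and 34 higher, or 55.3% lower, with a median of -0.038 and none past the 2-fold rule. Of all genes at the floor 46.0% were lower, 0.490% at least 2-fold lower and 2.26% at least 2-fold higher. These shares apply to the counts of the lists below too. In the list of further folding and redox genes 13 of 24 were lower (median -0.061). Fkbp7, a prolyl isomerase, stood just inside the rule at 6.01 in transgenic islets and 7.01 in control islets, with Dnajc10 (ERdj5), a reductase of ERAD, at -0.51 and its other probe sets at -0.22 and -0.16. Erp29 at 0.59 and Ero1b, the beta cell form of the oxidase that recharges isomerases, at 0.40 were furthest higher. Dnajc3, a cofactor of BiP and a reported target of miR-200, read 11.59 in transgenic and 12.05 in control islets (-0.46), with 4 other probe sets from -0.49 to -0.24.

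Genes of signal sequence recognition and membrane insertion were lower in 14 of 17 cases, by a median of -0.096. Srp72 and Sec61a2 were each at -0.43, although the second probe set of Sec61a2 gave 0.23. Srprb at 0.12 and Spcs3 at 0.050 were furthest higher, the 2 other probe sets of Srprb giving -1.16 and -0.32. In the N-glycosylation list 7 of 15 were lower (median 0.0089), with Alg2 at -0.66, Magt1 at -0.60, Stt3b at 0.36 and Rpn2 at 0.46. A second probe set of Magt1 gave -1.21, and averaging all probe sets gave -0.22 for Alg2. Further ERAD genes were lower in 8 of 20 cases (median 0.046). The ubiquitin-conjugating enzymes Ube2g2 and Ube2j1 stood at -0.45 and -0.43, the extracting ATPase Vcp at 0.29 and the mannosidase Man1b1 at 0.46. Second probe sets gave 0.0063 for Ube2j1 and -0.45 for Vcp, which averaged to -0.079.

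Beyond the ER, 17 of 26 genes of Golgi and vesicle transport were lower (median -0.12), with Sec13 and Kdelr3 at -0.49, Copa at 0.15 and Sec24b at 0.24. A second probe set of Copa gave -1.37, and with all probe sets averaged both Copa (-0.61) and Sec24b (-0.24) were on the lower side. Other regulators of the unfolded protein response were lower in 4 of 11 cases (median 0.088). Creb3l1 and Creb3, membrane-bound transcription factors related to ATF6, stood at -0.84 and -0.62, the other probe sets of Creb3 running from -0.53 to -0.12, and Tmbim6 and Bbc3 at 0.55 and 0.80.

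The ATF4 list, which covers the response downstream of PERK, had 12 of 19 genes lower (median -0.11). Ddit3 (Chop) at 10.37 in transgenic islets and 11.37 in control islets and Mthfd2, a mitochondrial folate enzyme, at 9.92 in transgenic and 10.92 in control islets were each just past the 2-fold rule, while their second probe sets gave -0.57 and -0.31. Ddit4 at 0.42 and Sesn2 at 0.73 were furthest higher, the second probe set of Sesn2 giving 0.27. Cytosolic heat shock genes were lower in 11 of 14 cases (median -0.14), with Hspa1a at -1.69, Hspa1b at -1.43 and Dnajb1 at -1.28. The second probe set of Dnajb1 gave -0.45, and its average of -0.86 is within 2-fold. Hspb1 stood at 0.25 and Hsp90aa1 at 0.064, with other probe sets of Hsp90aa1 from -0.12 to 0.28. Hspa1a and Hspa1b are near-identical, so their probe sets can share signal. The target arm, with a median of -0.23, stood below the median of each of these 8 lists, and whether it differs from them was not tested.

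**Figure D5:**
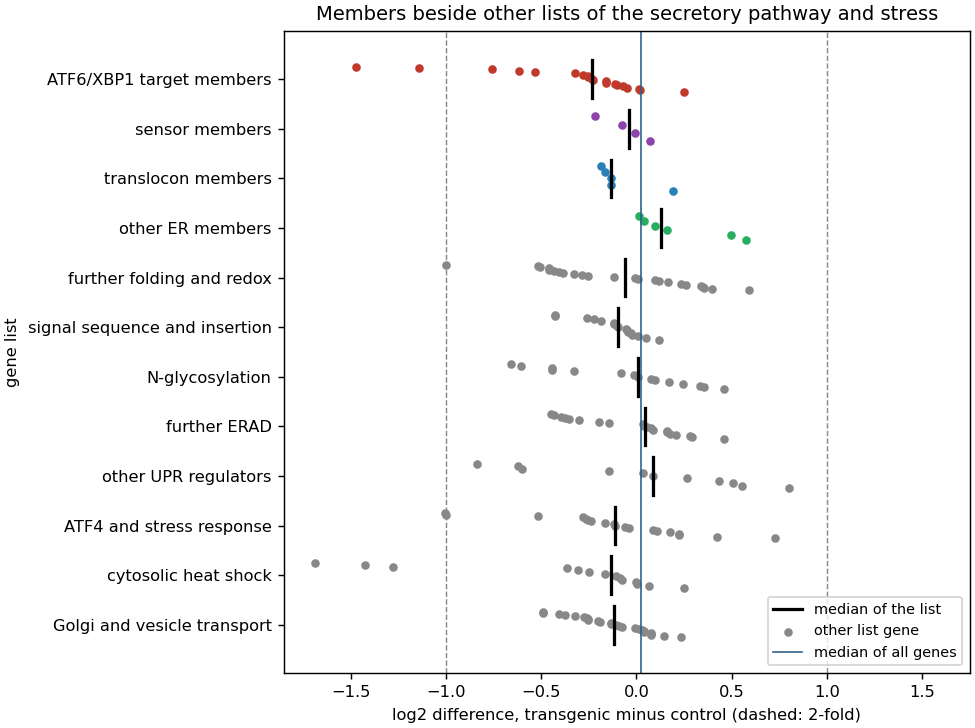
Log2 difference, transgenic minus control, of each gene in the 4 arms of members (coloured) and in 8 other lists (grey), with a black bar at the list median and a blue line at the median of all genes, 0.026. The target arm has the lowest median, -0.23, and cytosolic heat shock genes reach furthest down, to -1.69.

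Markers of the cells in the sample were read beside these values. Ins2 read 14.95 in transgenic islets and 15.02 in control islets, Pdx1 10.41 in transgenic and 10.09 in control islets, and Slc2a2 12.64 in transgenic and 12.97 in control islets, so the markers of beta cells were present on both arrays. The 11 beta cell markers at the floor had a median difference of -0.0083, with Ucn3 furthest at -0.81. The 7 of other endocrine cells had one of 0.017, with Irx1 at 0.28. Acinar markers were present on both arrays too, with a median level over 15 genes of 13.83 in transgenic and 13.68 in control islets. Acinar and plasma cells, which secrete in bulk, express many of the members strongly. Of the 15 acinar markers 13 were higher in the transgenic sample. Their summed level, the log2 of the sum of unlogged values, was 17.51 in transgenic against 17.38 in control islets. Bhlha15 (Mist1), an acinar factor that XBP1 raises, was the furthest at -0.44, and the acinar factor Ptf1a was below the floor on both arrays.

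Of the 8 plasma cell markers 3 were lower, with Irf4 furthest at 0.70, a summed level of 13.58 in transgenic against 13.73 in control islets, and Tnfrsf17 below the floor on both arrays. That list includes Xbp1, itself a member, which read 13.13 in transgenic and 13.35 in control islets. Xbp1 makes up most of the summed level, so that sum says little of the other plasma cell markers. By count 5 of the 8 were higher, and the median difference was 0.034. Macrophage markers were higher in 12 of 13 cases, with a summed level of 13.33 in transgenic against 12.69 in control islets and Mpeg1 at 1.25, and Itgam and Mrc1 were below the floor. Stellate and fibroblast markers were higher in 8 of 9 cases, with a summed level of 13.15 in transgenic against 12.37 in control islets and Col1a2 at 1.27, and Col1a1, Lum and Pdgfra were below the floor by their mean. Ductal markers were higher in 5 of 5 cases, with a median of 0.26 and Prom1 furthest at 1.11. Endothelial ones were higher in 7 of 8, with a median of 0.091 and Pecam1 furthest at 0.88. Lymphocyte ones were higher in 3 of 6, with a median of -0.051 and Cd2 furthest at 0.63. In control islets Cd2 read 5.77, close to the floor. In a bulk sample fewer cells of a type and less RNA per cell cannot be told apart. The part of these cells in the differences of the members was not tested.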

How the data were processed

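The authors deposited log2 expression values per probe set, made with RMA in Affymetrix Expression Console per the submitters' processing notes, and no version is given in the sources used here. The method corrects background, equalises the arrays and can compress differences at both ends of the scale. Sorted values of the 2 arrays differed by at most 0.10, and the number of arrays limits the precision. Groups were taken from the genotype label.

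The 45101 probe sets comprised 64 array controls, 34945 with 1 gene symbol, 932 with several and 9160 without one in the platform annotation. Symbols were updated through Entrez identifiers (34741 matched) to GRCm38.p6 names. Only probe sets with 1 symbol were used, and 18 listed genes without one were not analysed here. Members and lists were chosen with earlier results of these data known, which already showed several of these genes as lower, so no direction here is independent support. All members are named. Of other lists the 2 genes furthest in each direction and those past 2-fold are named, and of each marker list the furthest. Levels of different genes are not compared. Median and count functions were tested on simulated data. Python 3.11.15, numpy 2.4.6, pandas 2.3.3, statsmodels 0.14.6 and matplotlib 3.10.9 were used.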

Additional observations from a re-analysis of the deposited data

How the results depend on the processing

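With 1 array per genotype no value has an error, and nothing here was tested. Alternatives were averaging the probe sets of a gene, leaving out the probe set classes _s, _x and _a, no floor, a floor at the 75th percentile (7.81) or on at least 1 array, a second quantile normalization, subtraction of a lowess trend (span 0.3), centring on all genes, and a 1.5-fold rule. Leaving out Creld2 and Derl3, or the 4 members above 13, was chosen after seeing the data. Leaving out the member that a marker list holds (Xbp1) left 23 of 34 lower and no summary outside 1.5 times its value. Medians were compared by a ratio of 1.5. The 3 changes of floor could move no member result, because the chosen probe set of every member lay above each floor. Of the 6 summary results, the medians and the difference between arm medians kept their sign under these alternatives. The others are counts, which have no sign to change. Leaving out the _s, _x and _a classes, which removes Hspa5, Hsp90b1, Calr, P4hb, Derl3, Ssr2 and Ssr3, gave a median of -0.0725 over the other 28 members, -0.0060 for sensors and translocon, and 1 member past 2-fold. The difference between arm medians was -0.1542 in that setting, -0.1516 with averaged probe sets, -0.1503 without members above 13 and -0.0621 without Creld2 and Derl3, where 0 members passed the 2-fold rule. At 1.5-fold 4 members passed. With averaged probe sets 27 members were lower, and the sign of 7 turned (Hsp90b1, Pdia3, Txndc5, Edem1, Os9, Atf6 and Sec61a1). Of other named genes, Srprb (-0.4527), Vcp (-0.0791), Copa (-0.6143) and Sec24b (-0.2385) also turned, and Ddit3 (-0.7864), Mthfd2 (-0.6562) and Dnajb1 (-0.8625) were within 2-fold. Without the _s, _x and _a classes Xbp1 turned to 0.0786 and Srprb to -0.3177. Fkbp7 passed 2-fold under the 3 other scalings (-1.0357 to -1.0064). The cause was not tested. Other scalings gave 25 to 27 lower members. The share of all genes that were lower rose too in the settings that raised the member count. It was 46.0% as reported, 48.5% with averaged probe sets, 47.7% after lowess and 49.9% after the second quantile normalization. Centring set the median of all genes to 0. Without the _s, _x and _a classes 17 of the 28 members were lower, against 46.5% of all genes.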

Other observations

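Outside the 35 members, 11 genes at the floor had a full ERSE or ERSE-II in a promoter window (Adcy3, Alg12, Dnajc3, Ero1b and Pan2 with ERSE, and Krtcap2, Lgalsl, Lrif1, Nucb1, Rbm39 and Rcl1 with ERSE-II). Of these 11 genes 8 were lower in transgenic islets, against 46.0% of all genes at the floor, with a median difference of -0.059. None was past the 2-fold rule, against 0.490% of all genes lower and 2.26% higher, so with 11 genes this says little. Lgalsl at -0.47 and Dnajc3 at -0.46 were furthest lower, and Ero1b at 0.40 was furthest higher, although it carries the same element as Derl3 and Creld2. These genes were named after their values were seen. One probe set annotated to both Gm10320 and the member Sec61b was left out of the gene values. It read 6.22 in transgenic islets and 6.16 in control islets, a difference of 0.065.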
